A study of Mus musculus with 9 samples.

Results

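Microglia, the resident macrophages of the brain, are known by a small set of genes that most other macrophages express weakly or not at all. The 9 genes described here were Tmem119, P2ry12, Sall1, Gpr34, Siglech, Trem2, Olfml3, Fcrls, and Tyrobp. They were found by symbol in a deposited expression table of 24411 genes, and all 9 were in it. The table holds 9 mouse macrophage lines from C57BL/6 mice: 3 YS lines from E9.5 yolk sac, 3 FL lines from fetal liver at E14.5, and 3 BM lines from the bone marrow of adults, with 1 bulk RNA-seq library per line. None of the groups carried a genetic change, and all were kept in medium with 10% serum and M-CSF (100 ng/mL), the macrophage growth factor used to expand them. Each line was a bulk culture from its own vessel, started from pooled cells of several mice. It was regrown from colonies that appeared after weeks of culture. Most other adherent cells had by then stopped growing in BM and FL cultures, which was not necessarily so in YS cultures. P-values thus measure the spread between lines, which need not come from separate animals. No line came from brain, and no brain microglia were in the table, so the values have no microglial reference beside them.

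Yolk sac progenitors seed the brain early in development, and the cells that settle there take up the microglial program under local signals, among them TGF-beta and ligands of the M-CSF receptor. P2RY12 is a receptor for ADP that draws microglial processes toward injury, and GPR34 is a receptor for lysophosphatidylserine. TREM2 is a lipid-sensing surface receptor that has no signalling motif of its own and works through DAP12, the adaptor encoded by Tyrobp. SALL1 is a transcription factor that keeps microglial identity, TMEM119 and FCRLS are surface proteins used to tell microglia from other macrophages, SIGLECH is a sialic acid-binding lectin also found on plasmacytoid dendritic cells, and OLFML3 is a secreted protein.

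Expression was given as TPM, a unit scaled to the same total in each library, which divides by transcript length so that genes can be compared. Each value is a share of that total, so comparisons between lines also depend on the scaling. Results under other scalings are given below. The depth of the libraries is unknown, so error could be judged only from how the 3 lines of each group varied. Differences were computed on the log2(TPM + 1) scale, which understates the change of genes with low TPM. A gene was tested when it reached 1 TPM in at least 3 of the 9 libraries (11753 genes), and it was called when its adjusted p in limma was under 0.1 and its change was more than 2-fold. The typical macrophage markers summed to between 5105 TPM and 30144 TPM, lowest in YS line 1, and none of those 9 markers was below 1 TPM in every line. Markers of neurons summed to at most 1.58 TPM in any line and those of astrocytes to at most 0.37 TPM. The 3 oligodendrocyte markers summed to between 51.2 and 69.2 TPM across BM lines, between 18.4 and 36.9 TPM across YS lines, and between 6.56 and 18.4 TPM across FL lines, nearly all from Mbp, while Mog was at most 0.08 TPM. The BM line 2 library stood apart from the other BM lines: 15 genes were under 0.5 TPM in both BM line 1 and BM line 3 but at 20 TPM or more in every YS and FL line, and all 15 reached 1 TPM in BM line 2. Their median level in BM line 2 was between 13% and 17% of that in the YS and FL lines. Erythroid markers summed to 227.9 TPM in BM line 2 and to at most 9.10 TPM elsewhere.

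The promoters of P2ry12, Fcrls, and Trem2 are shown because P2ry12 and Fcrls had their highest levels in lines of embryonic origin, whereas Trem2 was abundant in all lines. Each window runs from 250 bases before to 50 bases after the start site that RefSeq gives in GRCm38.p6, and 6 of the 9 genes were in that promoter table (not Tmem119, Gpr34, or Tyrobp). P2ry12 lies at chr3:59262936-59263235 on the minus strand, Fcrls at chr3:87263475-87263774 on the minus strand, and Trem2 at chr17:48346151-48346450 on the plus strand. Capitals mark matches on either strand to GAGGAA, a core of sites for the macrophage factor PU.1, or GGAAGT, a core shared by many ETS factors. Both were chosen with the sequences in view.
P2ry12: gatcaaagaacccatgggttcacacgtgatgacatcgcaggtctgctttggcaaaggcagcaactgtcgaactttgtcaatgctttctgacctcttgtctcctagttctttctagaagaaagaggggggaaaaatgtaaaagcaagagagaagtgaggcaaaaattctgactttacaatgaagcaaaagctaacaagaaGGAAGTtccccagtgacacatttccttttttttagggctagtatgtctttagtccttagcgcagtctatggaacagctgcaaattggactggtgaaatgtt
Fcrls: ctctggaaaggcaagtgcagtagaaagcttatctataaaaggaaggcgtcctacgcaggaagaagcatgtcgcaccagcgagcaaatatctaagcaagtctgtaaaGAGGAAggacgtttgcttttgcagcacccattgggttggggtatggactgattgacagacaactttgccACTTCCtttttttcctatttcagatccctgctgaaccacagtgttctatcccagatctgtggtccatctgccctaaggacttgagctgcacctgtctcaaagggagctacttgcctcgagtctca
Trem2: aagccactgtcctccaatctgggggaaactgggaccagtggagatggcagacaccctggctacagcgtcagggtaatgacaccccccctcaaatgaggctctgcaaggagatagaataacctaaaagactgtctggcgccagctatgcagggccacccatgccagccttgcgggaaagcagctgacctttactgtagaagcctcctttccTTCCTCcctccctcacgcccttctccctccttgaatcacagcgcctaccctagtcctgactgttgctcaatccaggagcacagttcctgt
GGAAGT was found once in the P2ry12 window, beginning 51 bases before the start site. The Fcrls window held GAGGAA 144 bases and GGAAGT, on the opposite strand, 75 bases before the start. In the Trem2 window GAGGAA lay on the opposite strand, 40 bases before the start. These matches were common, since GAGGAA occurred in 28.3% and GGAAGT in 23.8% of all 32851 promoter windows of this length.

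Tyrobp and Trem2, the adaptor and its receptor, were abundant in every line. Tyrobp was at 2088, 2514, and 2238 TPM across YS lines 1 to 3, at 1852, 2687, and 2404 TPM in the FL lines, and at 2992, 3145, and 3312 TPM in the BM lines. Among all 24411 genes it held a rank between 16 and 41 in each library. All BM lines were above all YS and FL lines, and the YS and FL lines overlapped. On the log2 scale Tyrobp was lower in YS than in BM lines by 0.47 (limma adjusted p = 0.0545, SE 0.16) and lower in FL than in BM lines by 0.46 (adjusted p = 0.0723). Both differences were under 2-fold, so the gene was not called, and the YS and FL lines differed by 0.01 with a 95% interval from -0.36 to 0.35.

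For Trem2, the YS lines had 796, 1066, and 860 TPM, the FL lines 1172, 1361, and 1391 TPM, and the BM lines 1608, 1601, and 1696 TPM. The 3 groups did not overlap: every BM line was above every FL line, and every FL line was above every YS line. The YS lines were 0.86 lower than the BM lines on the log2 scale (95% interval -1.16 to -0.56, limma adjusted p = 0.00386), and 0.53 lower than the FL lines (adjusted p = 0.0588). The difference between FL and BM lines was 0.33 with an adjusted p of 0.126, and no Trem2 difference reached 2-fold. The ratio of Tyrobp to Trem2 TPM was 2.62, 2.36, and 2.60 in YS lines, 1.58, 1.97, and 1.73 in FL lines, and 1.86, 1.97, and 1.95 in BM lines. All YS ratios were above all others, and the exact two-sided permutation p was 0.1 against either group, the smallest that 3 lines against 3 can give, while FL against BM lines gave an exact permutation p of 0.4.

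**Figure D1:**
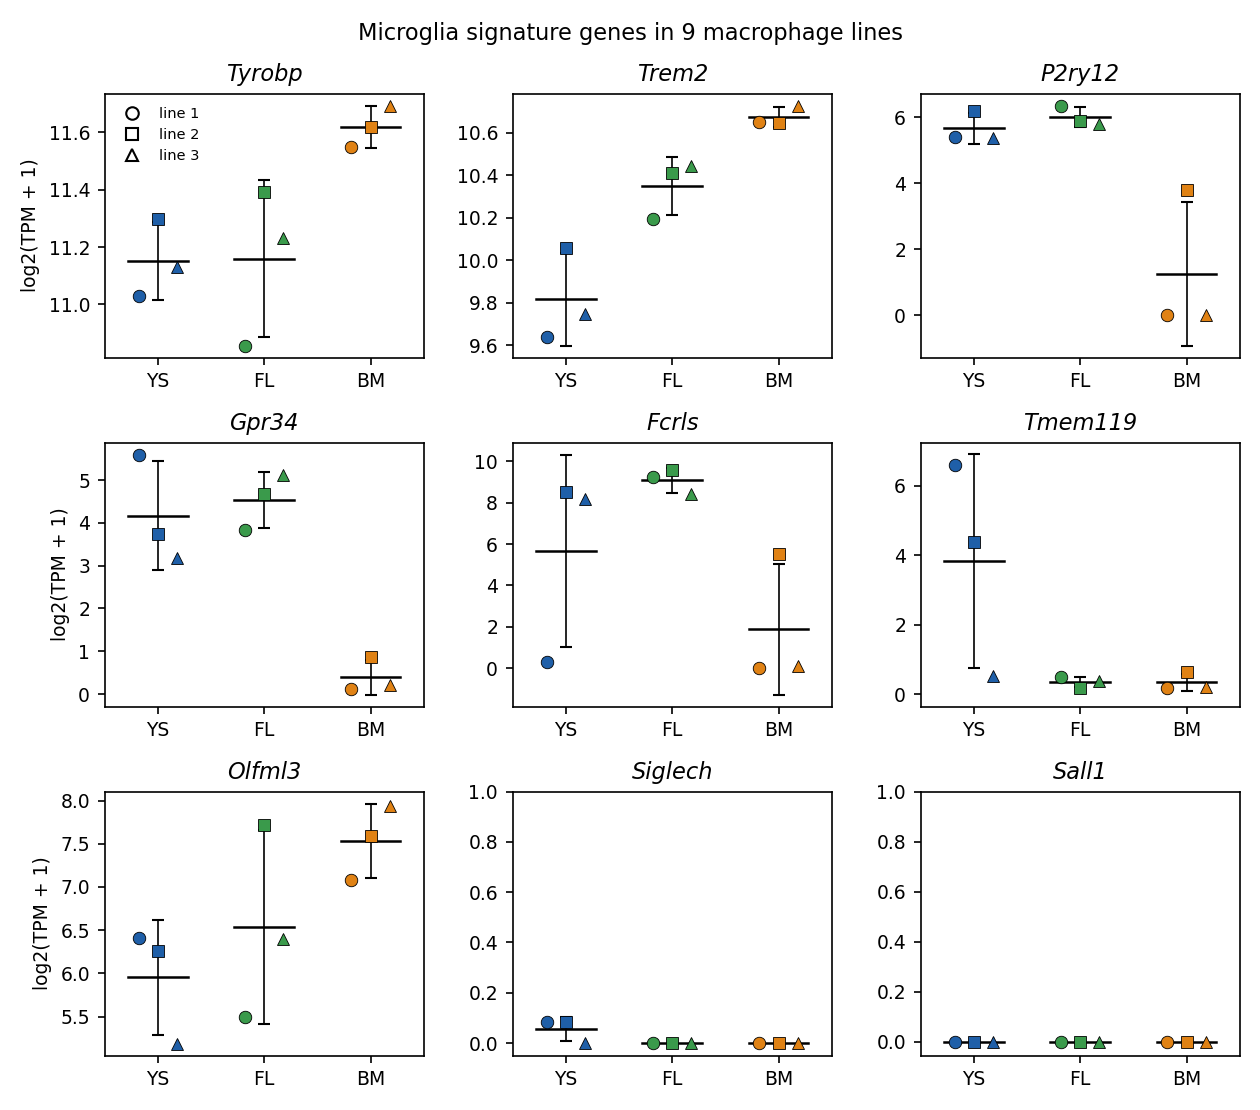
Level of each of the 9 genes as log2(TPM + 1) on the y axis in YS, FL, and BM lines; symbols are single lines, horizontal bars the group mean, error bars 1 SD (n = 3), and each panel has its own y range, which for Tyrobp, Trem2, and Olfml3 does not begin at 0. Tyrobp and Trem2 are high in all lines, P2ry12 and Gpr34 are lowest in the BM lines, Fcrls is near 0 in YS line 1 and in BM lines 1 and 3, and Sall1 is at 0 throughout.

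Of the purinergic and lipid receptors, P2ry12 and Gpr34 were present in every YS and FL line and low in BM lines. P2ry12 was at 41.7, 72.1, and 40.6 TPM across YS lines and at 81.0, 57.6, and 54.1 TPM across FL lines. In BM lines 1 and 3 it was listed at 0, and in BM line 2 it was at 12.8 TPM. The embryonic lines overlapped with each other and not with the BM lines. P2ry12 was higher by 4.40 in YS lines (SE 0.89, limma adjusted p = 0.00971) and by 4.74 in FL lines (adjusted p = 0.00769) than in BM lines, and without BM line 2 these values were 5.66 and 6.01. Without BM line 1 or BM line 3 they were 3.77 and 4.11, and both calls held. P2ry12 is itself one of the 15 genes described above, and its level in BM line 2 was between 15.7% and 31.4% of that in the single YS and FL lines. The part in this of the way BM line 2 stands apart was not tested beyond leaving that library out. The sum of the endothelial markers also moved with origin: their 4 genes summed to between 5.37 and 56.0 TPM across YS lines, between 18.9 and 51.8 TPM across FL lines, and to at most 1.70 TPM across BM lines, with Tek at most 0.04 TPM in any line. Kdr gave most of the sum in the FL lines and in YS lines 2 and 3, and Pecam1 (4.91 TPM) in YS line 1. Pecam1 was between 0.10 and 0.25 TPM across FL lines, within the range of the BM lines (0 to 0.56 TPM). Cdh5 was between 1.26 and 1.38 TPM across FL lines and at most 0.28 TPM across BM lines. The part of these markers in the result was not tested. In these bulk libraries, fewer cells that express a gene and less RNA of it per cell cannot be told apart.

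Gpr34 had 47.4, 12.4, and 8.02 TPM across YS lines, 13.2, 24.6, and 33.8 TPM across FL lines, and 0.08, 0.82, and 0.16 TPM across BM lines. The lowest embryonic line, YS line 3, was above the highest BM line, BM line 2. The gene was higher by 3.77 in YS lines (SE 0.60, limma adjusted p = 0.00411) and by 4.15 in FL lines (adjusted p = 0.00265) than in BM lines, and without YS line 1 the first value was 3.06 and was still called. YS and FL lines differed by -0.37, with a 95% interval from -1.73 to 0.98. The corresponding P2ry12 difference was -0.34, with an interval from -2.37 to 1.69, so differences of either sign within these bounds remain possible.

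Fcrls, a surface protein related to Fc receptors, gave the widest range of the 9 genes on the log2(TPM + 1) scale. It was at 595, 768, and 344 TPM across FL lines and at 369 and 288 TPM across YS lines 2 and 3, but at 0.22 TPM in YS line 1. In BM lines it was listed at 0 in line 1, at 45.0 TPM in line 2, and at 0.08 TPM in line 3. The level in BM line 2 was between 5.86% and 15.6% of those in the FL lines and YS lines 2 and 3. FL and BM lines did not overlap, whereas YS line 1 lay within the range of the BM lines. The FL lines were higher than the BM lines by 7.20 (SE 2.23, limma adjusted p = 0.0532), and by 9.02 without BM line 2. That call was lost when FL line 1, 2, or 3 or BM line 1 or 3 was left out (differences between 6.26 and 7.52, adjusted p between 0.103 and 0.173). The YS lines were not called against BM lines (3.79, SE 2.23, adjusted p = 0.231, and 5.61 without BM line 2), but without YS line 1 the difference was 6.48 and was called (adjusted p = 0.0199). The YS and FL lines differed by -3.41, with a 95% interval from -8.48 to 1.65.

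**Figure D2:**
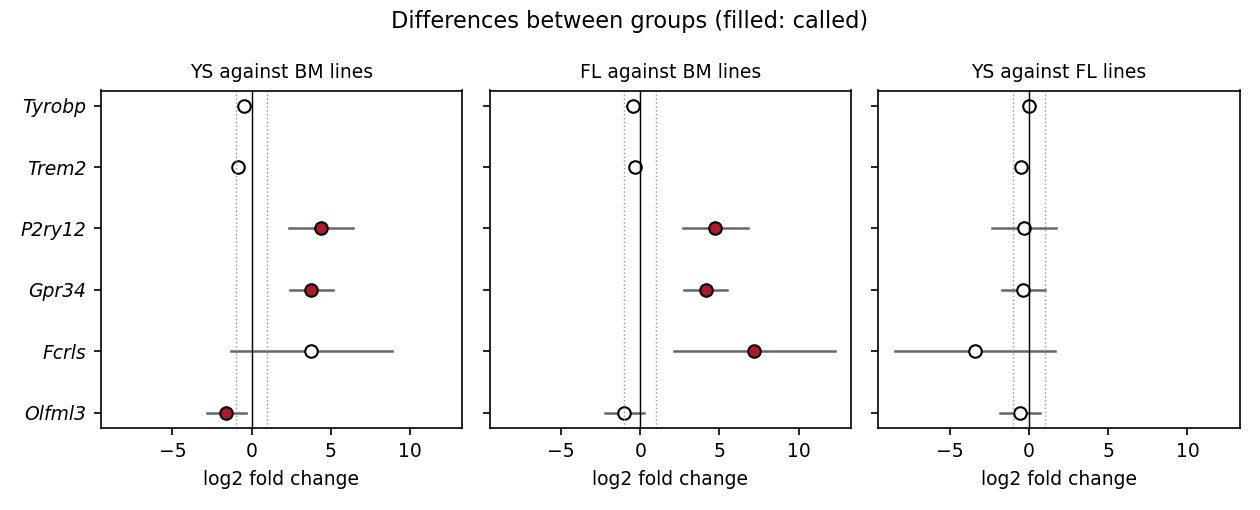
Log2 fold change on the x axis, from log2(TPM + 1), of the 6 genes that could be tested in the 3 comparisons; bars are 95% intervals, filled points are called genes, and dotted lines mark a 2-fold change. P2ry12 and Gpr34 lie to the right in both comparisons with BM lines, Fcrls has the widest bars, and no point is filled for YS against FL lines.

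Olfml3 ran the other way. Its level was 84.1, 75.8, and 35.4 TPM across YS lines, 44.0, 210, and 83.1 TPM across FL lines, and 135, 192, and 244 TPM across BM lines. All YS lines were below all BM lines, and FL line 2 lay inside the BM range while the other two FL lines lay below it. Olfml3 was lower in YS than in BM lines by 1.58 on the log2 scale (SE 0.55, limma adjusted p = 0.0607). The call was lost without YS line 3, BM line 2, or BM line 3 (adjusted p 0.147, 0.131, and 0.178). The FL lines were not called (-1.002, adjusted p = 0.238), but without FL line 2 they were 1.59 lower than BM lines and called (adjusted p = 0.0488). YS lines differed from FL lines by -0.58, with a 95% interval from -1.82 to 0.66, and by 0.011 without FL line 2.

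The remaining genes were at or near 0 in most lines. Tmem119 was at 94.7 TPM in YS line 1 and at 19.9 TPM in YS line 2, whereas YS line 3 had 0.43 TPM. The FL lines had between 0.13 and 0.40 TPM and the BM lines between 0.14 and 0.54 TPM. Only those 2 YS lines reached 1 TPM, so the gene did not enter the test. When the filter was dropped, the YS lines were 3.49 higher than BM lines with an adjusted p of 0.102 in limma. YS line 1 thus had the highest Tmem119 of the 9 lines and the lowest Fcrls of the YS and FL lines. Osteoblasts also express Tmem119, and their 6 markers summed to 3.50, 3.01, and 0.91 TPM across YS lines 1 to 3. Their sum was at most 0.37 TPM across FL lines and at most 0.44 TPM across BM lines. Most of it came from Bglap2 in YS line 1 (2.65 TPM) and from Bglap in YS line 2 (2.91 TPM), whereas Alpl was listed at 0 in all lines. The part of these markers in the Tmem119 levels was not tested.

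Sall1 was listed at 0 in all 9 lines. Siglech was at 0.06 TPM across YS lines 1 and 2 and listed at 0 in the other 7 lines. With the depth unknown, these values say only that both genes were not detected above 0.06 TPM. Of the 6 markers of plasmacytoid dendritic cells, 4 were below 1 TPM in every line. Cox6a2 was between 3.96 and 12.4 TPM in all lines. Pacsin1 was at 2.98 and 1.45 TPM across YS lines 1 and 2, the lines with Siglech at 0.06 TPM, and was listed at 0 elsewhere. The part of these markers in the Siglech values was not tested. The Sall1 relative Sall3 reached 6.24 and 1.58 TPM across YS lines 1 and 2 and was at most 0.26 TPM elsewhere, the same 2 lines in which Tmem119 was above 1 TPM; Sall3 was singled out after its values were seen.

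Of the 6 tested genes, 3 were called between YS and BM lines, where P2ry12 and Gpr34 were higher and Olfml3 lower in YS lines. Over all tested genes 12.8% were called in that comparison, 7.57% higher and 5.22% lower in YS lines. Between FL and BM lines P2ry12, Gpr34, and Fcrls were called, all higher in FL lines, beside 10.3% of all tested genes, 6.01% higher and 4.30% lower. No member was called between YS and FL lines with limma, 1 of them (Trem2) had an unadjusted p under 0.05 beside 25.7% of all tested genes, and 3.79% of all tested genes were called there, 1.95% higher and 1.85% lower in YS lines. The median log2 difference of the 6 genes was 1.65 for YS against BM lines and 1.91 for FL against BM lines, and the median of all tested genes was 0.11 and 0.09. Both medians of the 6 genes fall in a gap that holds none of them. The estimates of P2ry12, Gpr34, and Fcrls were higher by at least 3.77 in both comparisons, and those of Tyrobp, Trem2, and Olfml3 were lower. The adjusted p in limma was over 0.1 for Fcrls in YS lines (0.231) and for Trem2 (0.126) and Olfml3 (0.238) in FL lines. The comparisons with BM lines share the same 3 BM libraries, and the 6 genes include only those that passed the filter on low values.

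Genes beside or around the members were examined in the same lines. P2ry12 lies inside Med12l on chromosome 3, next to P2ry13, which encodes a second ADP receptor. P2ry13 was at 31.1, 38.0, and 23.3 TPM across YS lines, 20.1, 18.8, and 15.5 TPM across FL lines, and 3.50 TPM in BM line 2, and it was listed at 0 in BM lines 1 and 3. Like P2ry12 it was low in all BM lines and above the others in BM line 2, and it was called higher in YS lines (4.24, SE 0.53, limma adjusted p = 0.00196) and in FL lines (3.53, adjusted p = 0.00302). The host gene Med12l reached at most 1.78 TPM in any line and was listed at 0 in BM lines 1 and 3. The libraries were made with a directional kit, which keeps the strand of the RNA. Whether the counting used the strand is not given in the sources used here, so reads of such overlapping genes may not have been kept apart.

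Gpr34 lies inside Cask on chromosome X, beside Gpr82. Cask was between 2.23 and 11.2 TPM in all lines and Gpr82 at most 0.52 TPM, and both were below Gpr34 in every YS and FL line. Next to Fcrls on the same chromosome as P2ry12 are Cd5l, a secreted macrophage protein, and Fcrl1. Fcrl1 was listed at 0 in YS line 1 and was at 46.4 and 31.4 TPM across YS lines 2 and 3, at 3.97, 5.07, and 11.98 TPM across FL lines, and at 35.7, 39.4, and 50.9 TPM across BM lines. Cd5l was listed at 0 in YS line 1 as well and was between 4.47 and 22.0 TPM in the other embryonic lines. YS line 1 was thus the lowest embryonic line for all 3 genes, while in BM lines 1 and 3 Fcrl1 was high and Fcrls at or near 0.

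Trem2 sits in the TREM cluster of chromosome 17. On its left side on the chromosome map are Treml2 and, nearer to it, B430306N03Rik. Treml2 was at 56.2, 10.7, and 4.66 TPM across YS lines and at most 0.07 TPM in all others, and it was called higher in YS lines against BM lines (3.94, SE 0.69, limma adjusted p = 0.00607) and against FL lines (3.92, adjusted p = 0.0264). Only YS lines brought Treml2 past the filter on low values, so its entry to the test depended on the group in which it was high. B430306N03Rik had 42.3, 36.4, and 15.0 TPM across YS lines, 64.7, 141, and 89.7 TPM across FL lines, and 0.41, 3.21, and 0.30 TPM across BM lines. Treml1, on the right side of Trem2, was between 7.20 and 18.6 TPM. Neighbouring genes of this cluster thus differed from one another in the order of the groups. Next to Tyrobp, Hcst, which encodes the adaptor DAP10, was between 6.44 and 23.9 TPM, far below Tyrobp in every line. Selplg, beside Tmem119, was between 52.5 and 78.8 TPM in all lines and did not follow its neighbour.

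**Figure D3:**
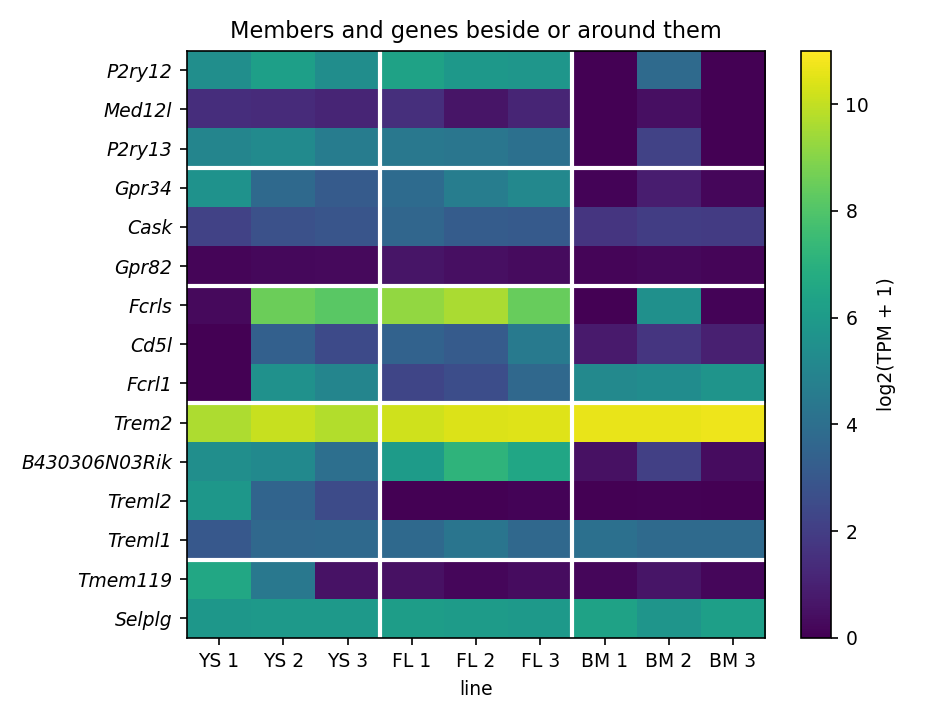
Colour gives log2(TPM + 1) of 5 members and of genes beside or around them, one row per gene and one column per line, with white lines between groups of lines and between loci. P2ry12 and P2ry13 are dark in BM lines 1 and 3, Fcrls and its neighbours are dark in YS line 1, and Treml2 is above 1 TPM across YS lines alone.

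Wider lists of genes with related roles were counted in the same test. Over all tested genes it called 12.8% for YS against BM lines, 10.3% for FL against BM lines, and 3.79% for YS against FL lines. Of 14 tested genes among other microglia genes, 4 were higher and 1 lower in YS than in BM lines, 3 higher and 2 lower in FL than in BM lines, and 2 higher in YS than in FL lines. The median differences of the list were 0.55, 0.62, and 0.07. Besides P2ry13, the transporter gene Slco2b1 (21.7, 2.91, and 13.7 TPM across YS lines) was higher by 3.27 in YS than in BM lines. It was also higher by 2.39 in YS than in FL lines (adjusted p = 0.0575 in limma), a call that was lost without FL line 2 or 3 or BM line 1 or 3 and when only the YS and FL lines were fitted. Rnase4, a secreted ribonuclease, was higher than in BM lines by 1.42 in YS and by 2.01 in FL lines, and Cst3, the protease inhibitor cystatin C, was 1.22 lower in FL lines and, under 2-fold and not called, 0.66 lower in YS lines. In contrast, Sparc, Crybb1, Upk1b, and Nav3 were each under 1 TPM in all lines.

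Among transcription factors and TGF-beta signalling genes, 5 of 14 tested were higher in YS than in BM lines and 3 were higher in FL than in BM lines, with none lower. Over all tested genes 7.57% and 6.01% were called higher in these comparisons. The median differences of the list were 0.28 and 0.50. Nrros, which encodes a protein that anchors and helps activate latent TGF-beta on microglia, was at 268, 213, and 167 TPM across YS lines, 223, 261, and 218 TPM across FL lines, and 50.6, 77.5, and 59.4 TPM across BM lines. It was higher by 1.77 in YS lines (limma adjusted p = 0.00153) and by 1.91 in FL lines (adjusted p = 0.000914). Irf8, a factor required for macrophage and microglia development, was higher by 1.54 and 1.11, and the receptor gene Tgfbr2 by 1.10 and 1.12. Smad3, a mediator of TGF-beta signals, was 2.07 higher in YS lines and, not called, 0.97 higher in FL lines. Spi1, which encodes PU.1, was between 364 and 456 TPM in all lines and was not called. Between YS and FL lines limma called 0 genes of the list, with 7 at an unadjusted p under 0.05 beside 25.7% of all tested genes, and without FL line 1 or YS line 2 it called 3. Without YS line 1, 3 genes rather than 5 were called between YS and BM lines.

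In the signalling chain below DAP12 few genes passed the 2-fold rule. Without a fold threshold 7 of 18 were called for YS against BM lines, 10 for FL against BM lines, and 4 for YS against FL lines. At that setting 4455, 3247, and 1500 of all 11753 tested genes were called in these comparisons. Whether the list differed from all tested genes in this was not tested. With the 2-fold rule none of the 18 was called between YS and BM lines (8 at an unadjusted p under 0.05 in limma, beside 41.2% of all tested genes) or between YS and FL lines (6 at an unadjusted p under 0.05, beside 25.7%), and without YS line 1 or YS line 2 it called 1 between YS and BM lines. Lyn, a Src-family kinase, was higher in FL than in BM lines by 1.05 (adjusted p = 0.00212), a call lost under quantile or median-of-ratios scaling and without FL line 2 or BM line 3. Syk, the kinase recruited by the DAP12 motif, was at 55.4, 49.7, and 51.3 TPM across YS lines, 70.2, 72.8, and 86.8 TPM across FL lines, and 86.9, 81.2, and 89.6 TPM across BM lines. It was 0.71 lower in YS than in BM lines (adjusted p = 0.00384), under 2-fold, and was added to the named genes after its values were seen. Fcer1g, the adaptor related to DAP12, was between 2373 and 3392 TPM with no difference called.

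The next list held TREM family genes, whether or not they pair with DAP12, and receptors that pair with it. Of its 12 tested genes, 4 were higher and 2 lower in YS than in BM lines. For FL against BM lines 5 were higher and 1 lower, and for YS against FL lines 1 was higher and 1 lower. Over all tested genes 12.8%, 10.3%, and 3.79% were called in these comparisons. The list median was 0.03, 1.22, and -0.65. Treml4 was at 19.3, 16.4, and 34.2 TPM across FL lines against 2.34, 3.88, and 2.00 TPM across BM lines, a difference of 2.66 (limma adjusted p = 0.00125), and it was 1.71 higher in YS than in BM lines. Siglec15, a receptor of osteoclasts and macrophages, was at 38.5, 34.7, and 55.0 TPM across BM lines and was lower by 3.63 in YS and by 2.63 in FL lines. Trem3 was 1.28 lower in YS than in FL lines. Pilrb1 was higher than in BM lines by 3.06 in YS and 2.53 in FL lines, and Pilrb2 by 2.92 and 2.99. Sirpb1b was 2.81 higher in FL lines and was not called in YS lines (0.35). These genes have close relatives that could share reads, so their values are uncertain. The count for FL against BM lines was 4 without BM line 1 or 3, that for YS against BM lines was 5 without any 1 of the 3 BM lines and 4 without YS line 1, and that for YS against FL lines was 1 without FL line 2 or 3 or YS line 1 or 3.

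Genes that microglia raise in disease, many of them through TREM2, were called in both directions. Of 22 tested, 6 were higher and 1 lower in YS than in BM lines, 3 higher and 4 lower in FL than in BM lines, and 5 higher and 1 lower in YS than in FL lines, with list medians of 0.00, 0.06, and 0.21. The shares called over all tested genes were 12.8%, 10.3%, and 3.79%. Cst7, which encodes the protease inhibitor cystatin F, was at 63.4, 27.3, and 77.6 TPM across YS lines, 17.9, 4.52, and 5.36 TPM across FL lines, and 0.79, 2.24, and 1.75 TPM across BM lines. It was higher in YS lines by 4.38 against BM lines (limma adjusted p = 0.00183) and by 2.58 against FL lines (adjusted p = 0.0399). Axl, a receptor for phosphatidylserine-binding ligands, was at 42.0, 7.59, and 15.3 TPM across YS lines and at most 0.13 TPM in the others. Like Treml2, it passed the filter on low values only through the YS lines. The growth factor gene Csf1 was 2.24 and 2.51 higher in YS lines than in BM and FL lines. The growth factor gene Igf1 was higher than in BM lines by 2.24 in YS and by 2.21 in FL lines. Lpl, a lipase, and Spp1, which encodes osteopontin, were lower in FL than in BM lines by 4.00 and 3.92 and were not called in YS lines (-1.26 and -3.27), and Spp1 reached between 13837 and 16560 TPM across BM lines. The number called between YS and FL lines was between 1 and 6 when single lines were left out (1 without FL line 2 or 3, 2 without YS line 2 or any 1 BM line, 3 without YS line 1, 4 without YS line 3), and between FL and BM lines it was 4 without BM line 1 or 3.

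Of 21 relatives of the members by family, 9 passed the filter on low values, P2ry13 among them as in the first list. Of these, 3 were higher in YS and 4 in FL than in BM lines, none was lower, and none was called between YS and FL lines with limma (2 at an unadjusted p under 0.05, beside 25.7% of all tested genes), though 1 was without FL line 2 or 3 or YS line 1 or 3. Over all tested genes 7.57% were called higher in YS and 6.01% higher in FL than in BM lines. The list medians were 0.64, 1.45, and -0.06. Besides P2ry13, the siglec gene Cd33 was at 209, 137, and 167 TPM across YS lines, 110, 110, and 145 TPM across FL lines, and 36.6, 46.3, and 22.3 TPM across BM lines. It was 2.29 higher in YS lines (limma adjusted p = 0.00157) and 1.81 higher in FL lines (adjusted p = 0.00288). Siglece was higher than in BM lines by 1.56 in YS and by 1.62 in FL lines. The sialoadhesin gene Siglec1 was 2.61 higher in FL lines and was not called in YS lines (1.80, adjusted p = 0.123). P2ry6, the UDP receptor, was between 83.1 and 215 TPM in all lines and was not called, unlike its relatives P2ry12 and P2ry13, though the difference between these genes was not tested.

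**Figure D4:**
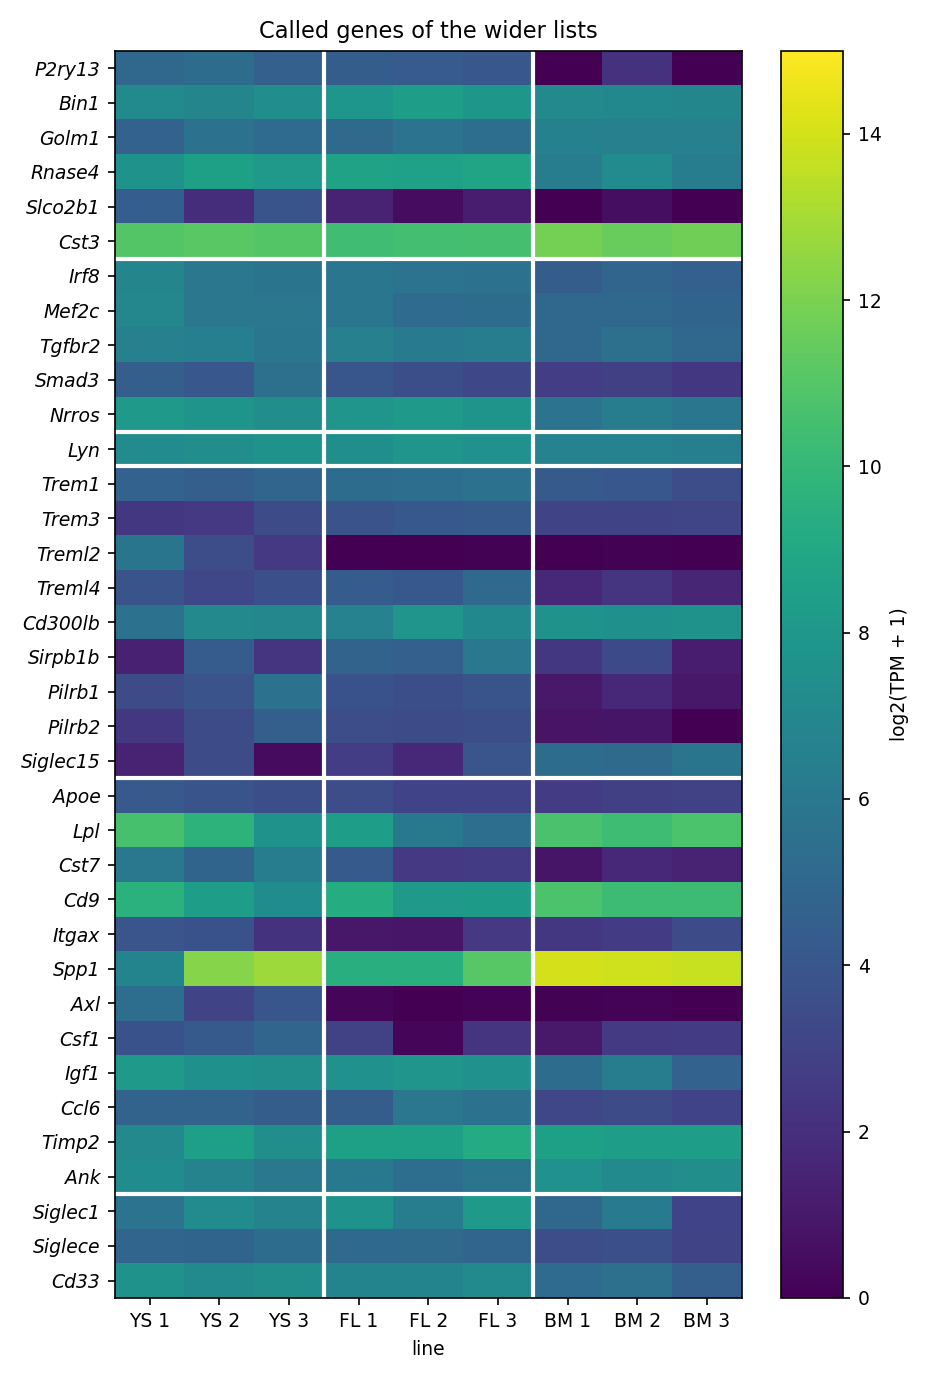
Colour gives log2(TPM + 1) of the genes of the wider lists that were called in at least 1 comparison, 1 of them left out, one row per gene and one column per line; white lines separate groups of lines and the lists, from top to bottom other microglia genes, transcription factors and TGF-beta signalling, the DAP12 chain, TREM family and DAP12 partners, disease-associated genes, and relatives of the members. Axl and Treml2 are above 1 TPM in YS lines alone, and Spp1 is brightest in BM lines.

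The genes with the nearest profile were taken as those with the smallest root mean square difference from a called member over the 9 lines, after centring each gene on the log2(TPM + 1) scale. Nearest to P2ry12 were Sema4c (0.29), Bcl2a1b (0.44), and Was (0.47). Sema4c was at 50.2, 50.6, and 40.0 TPM across YS lines, 52.4, 49.0, and 47.8 TPM across FL lines, and 0.12, 9.25, and 0.08 TPM across BM lines, with BM line 2 again above the other BM lines. Near to Gpr34 were Clec4a1 (0.48) and Tcp11x2 (0.64), and nearest to Olfml3 were Slc11a1 (0.39), Pgbd5 (0.41), and Dnajb4 (0.43). For Fcrls no gene was as near: B3galnt1 (1.72), Cd300e (1.78), and Ccl12 (2.00) came first. Of the 4 called members, P2ry12 and Gpr34 were nearest to each other (1.21), and Fcrls and Olfml3 farthest apart (4.44).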

How the data were processed

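RNA was measured in 3 YS, 3 FL, and 3 BM lines by poly(A)-selected RNA-seq with a directional library kit, read as 75 nt single ends. Values were deposited as TPM for 24411 gene symbols. The submitters' processing notes name Trim Galore 0.6.6, STAR 2.7.9a, and RSEM 1.3.3; the genome build and annotation are not given in the sources used here, and the raw counts were not used here. Lines were grouped by their sample labels. From log2(TPM + 1), genes at 1 TPM or more in at least 3 libraries were fitted over all 9 libraries with limma 3.58.1 in R 4.3.3 (moderated by empirical Bayes with a trend in intensity, with Benjamini-Hochberg adjustment over 11753 genes per comparison). Adjusted p-values are from this fit, which was tested on simulated data. The members and lists were chosen with earlier results of these data known. Named genes were all members, the 3 largest called and non-overlapping changes of each list and comparison, the 3 nearest profiles of each called member, and neighbours and a few genes at a common level chosen after their values were seen; a few genes that the rule names are not reported here. Promoters and gene neighbours came from RefSeq (GRCm38.p6), which held 9 of 9 members. Alternatives changed the pseudocount, filter, scaling, trend, libraries, block, and thresholds.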

Additional observations from a re-analysis of the deposited data

How the results depend on the processing

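The 18 fold changes of the 6 tested members were recomputed under 18 alternatives each, giving 324 values: 308 kept their direction and their side of the threshold, 8 lost a call, 2 gained one, and 6 turned in direction. The lost and gained calls were those of Fcrls and Olfml3 described above, and all came from leaving out a line. The 6 values that turned belonged to differences between YS and FL lines that were not called: Gpr34 without YS line 3 (0.13, in a leave-one-out range from -1.09 to 0.13), Olfml3 without FL line 2 (0.011, range -1.10 to 0.011), and Tyrobp without YS line 1 (0.05), YS line 3 (0.0025), FL line 2 (0.11), or FL line 3 (0.03; range -0.16 to 0.11). With lines left out in turn, the number of members called was between 2 and 4 for YS against BM lines, between 2 and 3 for FL against BM lines, and 0 in each case for YS against FL lines. Without a fold threshold 5 members were called for YS against BM lines and 1 for YS against FL lines, and at a false discovery rate under 0.05 the numbers were 2, 2, and 0. Line numbers are shared between groups without any stated pairing, and the same-numbered lines did not deviate together (correlations between -0.118 and 0.088). With the line number as a replicate block, 3, 3, and 0 members were called, as without it. Over all genes, quantile normalization moved the share of calls that were higher from 59.2% to 47.6% for YS and from 58.3% to 50% for FL against BM lines, and it moved the median difference of all genes between YS and BM lines from 0.11 to -0.02, while 3, 3, and 0 members were called. The number of all genes called between YS and FL lines was 446, but 81 when only those 2 groups were fitted, 175 or 178 without FL line 2 or 3, 285 or 294 without BM line 1 or 3, 280 with a pseudocount of 4, and 234 at a false discovery rate under 0.05. Without a fold threshold 4455, 3247, and 1500 genes were called in the 3 comparisons. The depth behind these TPM is unknown, so low values and values listed at 0 have no detection limit.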

Other observations

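A few other genes varied widely between lines of 1 group, and are given as values chosen after they were seen. Lgals3, which encodes galectin-3, was at 2.76 TPM in FL line 2 and between 841 and 3293 TPM in the other 8 lines. Ch25h, which encodes cholesterol 25-hydroxylase, was at 3.71, 90.6, and 193 TPM across YS lines, 85.8, 0.10, and 0.35 TPM across FL lines, and 16.1 TPM in BM line 2, and it was listed at 0 in BM lines 1 and 3. The fatty acid-binding protein gene Fabp5 was at 706, 92.0, and 5.09 TPM across YS lines and at 109, 3.66, and 787 TPM across FL lines, whereas the BM lines had 43.5, 94.97, and 90.5 TPM. Cx3cr1, the fractalkine receptor gene of microglia and monocytes, was at 492, 162, and 39.7 TPM across YS lines, 86.8, 135, and 48.8 TPM across FL lines, and 34.0, 76.8, and 20.4 TPM across BM lines, and it was not called in any comparison. Kdr, listed here as an endothelial marker and not in a wider list, also differed between groups. Its level was 0.29, 16.1, and 54.4 TPM across YS lines, 17.4, 17.5, and 50.4 TPM across FL lines, and at most 0.86 TPM across BM lines. Against BM lines it was called higher in FL lines (4.35, limma adjusted p = 0.0318) and in YS lines (3.07, adjusted p = 0.0807). YS line 1 lay within the range of the BM lines. Tek was at most 0.04 TPM and Cdh5 at most 1.38 TPM in any line.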
